A study of Homo sapiens with 8 samples.

Results

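The genes described here encode the enzymes that add methyl groups to lysines of histones, the writers, and those that take them off, the erasers, together with the core subunits of the polycomb complex PRC2. They were picked out by gene symbol: the KDM, KMT, SETD, SMYD and NSD families, EZH1, EZH2, EED, SUZ12, EHMT1, EHMT2, SUV39H1, SUV39H2, SETDB1, SETDB2, DOT1L and ASH1L. The choice of genes, and their grouping by mark and role, was made with earlier results of these data known. The rule found 55 of the 35394 genes in the table, and 54 of them passed the filter on low counts that left 15006 genes. The other was SMYD1, a gene of muscle, with 0, 1, 2 and 2 counts in the 4 PZH libraries and 0 counts in all 4 DMSO libraries. All of these lie below a floor of 3 counts per library, so no fold is given for it.

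The cells were HCT116, a human colorectal cancer line of epithelial origin with a RAS mutation. The treated group received PZH for 24 h, which stands for Pien Tze Huang, a formula of traditional Chinese medicine. Its control received the solvent DMSO, and each group has 4 libraries of poly(A) RNA. The sources used here give no dose, and no treatment time for the control. They do not say whether the replicates were separate cultures, so p-values measure only the spread between these libraries. All libraries come from 1 cell line.

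Histone lysine methylation marks stretches of chromatin. H3K4 methylation is found at active promoters and enhancers, H3K36 and H3K79 methylation along transcribed genes, H3K9 methylation in heterochromatin, H3K27 methylation at genes silenced by polycomb, and H4K20 methylation in compacted and replicating chromatin. Most writers share a catalytic SET domain and use S-adenosylmethionine as methyl donor. Most erasers share a JmjC domain that needs iron, oxygen and 2-oxoglutarate, while KDM1A and KDM1B use a flavin cofactor instead.

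Total counts were 18144117 to 18868057 per PZH library and 19288836 to 19917571 per DMSO library, and libraries are numbered by replicate. The family took 0.362% to 0.396% of counts in PZH and 0.402% to 0.408% in DMSO. Levels are given in CPM, a gene's count relative to its library's total, scaled with TMM factors, which correct for differences in RNA composition between libraries. Those factors were 0.896 to 0.949 in PZH and 1.09 to 1.10 in DMSO, and the 10 most abundant genes took 10.5% to 11.4% of counts in PZH and 6.22% to 6.43% in DMSO. Of the epithelial markers EPCAM, KRT8, KRT18, KRT19, CDH1 and CLDN4, none was at 0, and their sum without scaling factors was 2577 to 2918 CPM in PZH and 4009.9 to 4076 CPM in DMSO. As single genes, 3 of these 6 were called higher, 1 lower and 2 not called with TMM, and 2 higher and 4 lower without scaling factors. The 13 markers of fibroblasts, endothelial, immune and blood cells summed to 18.1 to 22.2 CPM in PZH and 12.5 to 16.5 CPM in DMSO. Without the collagen gene COL1A1, the sum was 0.751 to 2.15 CPM in PZH and 1.32 to 2.56 CPM in DMSO. COL1A2 had no count in any library. The part of these differences in the results on the family was not tested.

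With TMM scaling, 13 of the 18 genes grouped as erasers were called higher in PZH, against 39.3% of all genes tested. Of the 6 H3K9 writers, 4 were called lower, against 40.9% of all genes tested. KDM6B had the steepest rise of the family and EHMT2 the steepest fall. Of the 54 tested genes, 26 were higher and 24 lower in PZH (edgeR's quasi-likelihood test, two-sided, Benjamini-Hochberg adjusted p under 0.05), and 4 were not called. Of all genes tested, 39.3% were called higher, 40.9% lower and 80.3% in either direction, so calls as such do not set the family apart. The median log2 fold change was 0.08 over the 54 genes and -0.02 over all genes. The 18 erasers divided into 13 higher and 5 lower, with a median log2 fold change of 0.46. Writers of the 6 histone marks, PRC2 subunits included, divided into 10 higher, 11 lower and 4 not called of 25, with a median of 0.03. The libraries of the groups did not overlap for 45 of the 54 genes, 25 of them higher and 20 lower in PZH, against 75.0% of all genes tested.

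Directions depend on the scaling. With library totals alone, the median log2 fold change over all genes moved by -0.26, and the share of higher genes among all calls was 36.8%, against 49.0% with TMM. Counted that way, 20 family members were higher and 26 lower, and the erasers were 11 higher and 5 lower. The 25 writers were then 7 higher and 13 lower, with a median of -0.23, and with each library's GC trend removed they were 11 higher and 9 lower, with a median of 0.01. Every family member that differed at least 2-fold kept its direction and its call without scaling factors.

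A difference of at least 2-fold was found for 7 genes that rose (15.8% of all genes tested did so) and 5 that fell (18.9% of all genes). The 7 were KDM6B, KDM7A, KDM6A, KDM5C, KDM5B, KDM5D and KMT5B, of which KMT5B is a writer and the other 6 are erasers. The 5 were EHMT2, SUV39H1, SMYD3, SUV39H2 and NSD2, all methyltransferases. The spread of the family, by mark and by role, is drawn in the plot of fold changes for all 54 genes.

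**Figure D1:**
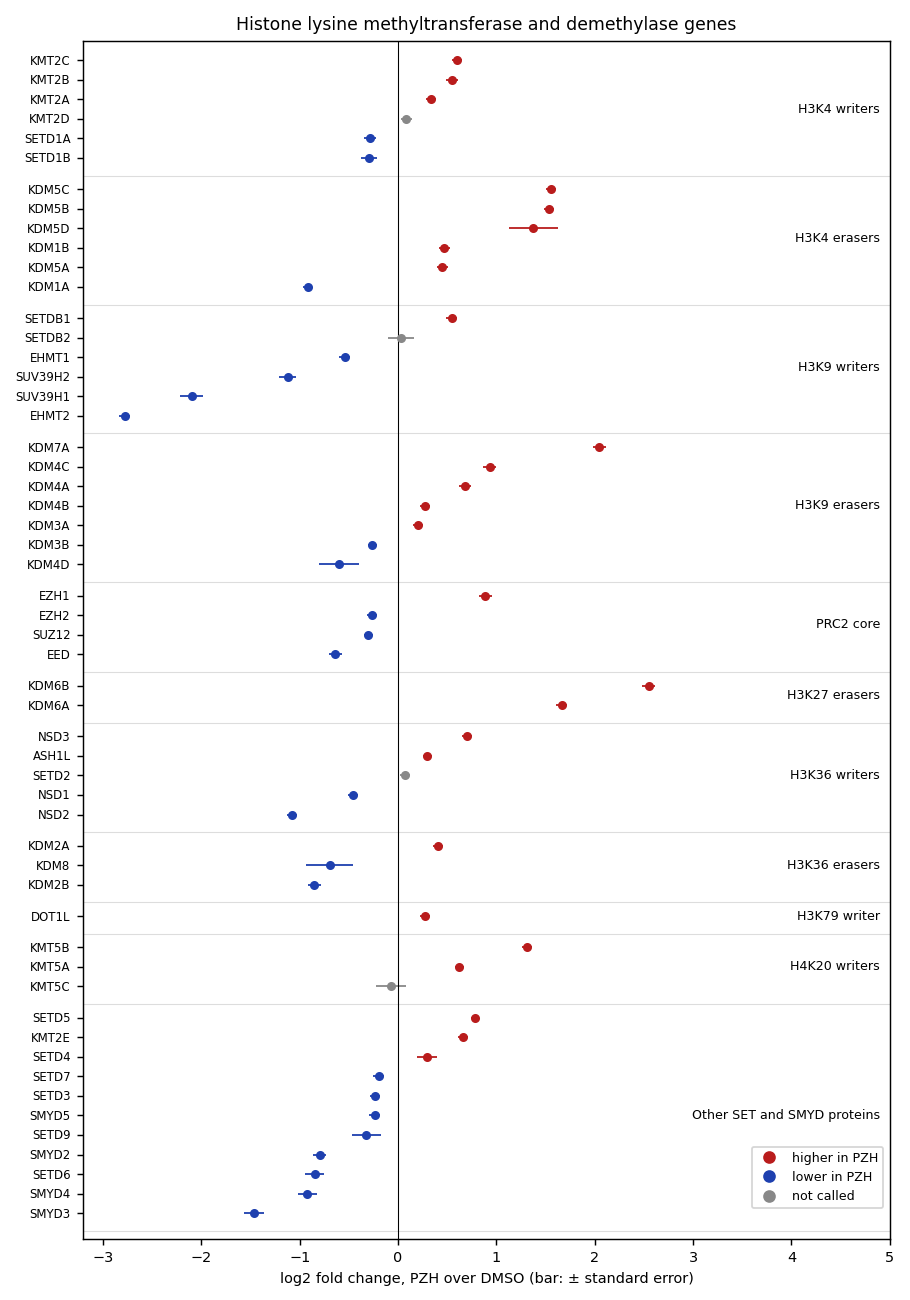
Each point is the log2 fold change, PZH over DMSO, of 1 of the 54 tested genes, with a bar of ± 1 standard error (n = 4 libraries per group), grouped by histone mark and role. The steepest fall is that of EHMT2 at -2.78 and the steepest rise that of KDM6B at 2.55.

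Sequence just upstream of the annotated start was available for 51 of the 54 genes, from RefSeq on GRCh38.p14, as the 250 bases before the start. The sources used here do not name the genome build behind the counts, so these windows are background and not coordinates of the counts. Both strands were searched for TTTNNCGC, a loose form of the E2F site of cell cycle genes, where N is any base. They were also searched for TTTGAA, the CHR element of mitotic genes, and for TGANTCA, the AP-1 site. A further search was for TGATGNAA, a form of the site bound by ATF4 with C/EBP partners. The loose E2F form lay in 7 of the 51 windows (13.7%), against 9.02% of 10319 matched genes tested. These 7 were NSD2, SMYD2, SMYD3 and SUZ12 among the 23 matched genes that fell, EZH1 and KDM1B among the 24 that rose, and KMT2D, which was not called. The CHR element lay in 2 windows (3.92%, against 8.01%), the AP-1 site in 2 (3.92%, against 3.86%) and the ATF4 form in none (against 1.36% of matched genes). The windows of 5 genes that differed at least 2-fold are printed here. NSD2, SMYD3 and KDM6A are the ones of that kind that hold a match, a choice made after the matches were seen, and EHMT2 and KDM6B are the steepest fall and rise, which hold none. Matches are in capitals, 5′ to 3′ on the strand of the gene, and a match is a description of the letters only.
NSD2 (chr4:1871143-1871392, plus strand): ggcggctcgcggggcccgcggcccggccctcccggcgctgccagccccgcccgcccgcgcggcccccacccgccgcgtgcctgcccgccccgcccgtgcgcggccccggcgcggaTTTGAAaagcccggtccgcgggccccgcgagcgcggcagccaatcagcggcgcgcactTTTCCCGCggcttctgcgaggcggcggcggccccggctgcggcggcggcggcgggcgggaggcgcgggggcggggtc
SMYD3 (chr1:246507280-246507529, minus strand): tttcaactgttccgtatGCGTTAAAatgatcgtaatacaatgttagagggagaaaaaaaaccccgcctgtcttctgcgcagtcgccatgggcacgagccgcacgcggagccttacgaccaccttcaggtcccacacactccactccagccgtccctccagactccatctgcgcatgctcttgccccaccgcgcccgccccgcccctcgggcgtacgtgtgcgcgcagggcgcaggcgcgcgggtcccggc
EHMT2 (chr6:31897699-31897948, minus strand): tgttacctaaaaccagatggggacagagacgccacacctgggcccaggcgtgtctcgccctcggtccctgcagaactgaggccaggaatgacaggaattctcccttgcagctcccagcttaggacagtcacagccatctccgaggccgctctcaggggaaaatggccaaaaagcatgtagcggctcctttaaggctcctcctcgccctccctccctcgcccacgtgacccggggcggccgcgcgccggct
KDM6A (chrX:44872938-44873187, plus strand): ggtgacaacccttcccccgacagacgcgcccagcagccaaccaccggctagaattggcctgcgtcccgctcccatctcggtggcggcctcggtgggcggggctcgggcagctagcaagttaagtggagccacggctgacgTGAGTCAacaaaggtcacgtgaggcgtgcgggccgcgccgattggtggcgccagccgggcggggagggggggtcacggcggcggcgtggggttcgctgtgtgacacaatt
KDM6B (chr17:7833967-7834216, plus strand): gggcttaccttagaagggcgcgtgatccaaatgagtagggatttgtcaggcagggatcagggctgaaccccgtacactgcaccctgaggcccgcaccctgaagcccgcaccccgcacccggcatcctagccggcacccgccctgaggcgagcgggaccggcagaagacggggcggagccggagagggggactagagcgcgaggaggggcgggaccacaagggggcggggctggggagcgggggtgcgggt
In NSD2 the CHR letters begin 135 bases and the loose E2F letters 77 bases before the start. In SMYD3 the loose E2F letters are read on the other strand and begin 233 bases before it. Read in the direction of the motif, the SMYD3 match has A at both N positions, where that of NSD2 has C, so it may not be an E2F site. In KDM6A the AP-1 letters begin 110 bases before the start.

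Of the 6 writers of H3K9 methylation, EHMT2, EHMT1, SUV39H1 and SUV39H2 fell, SETDB1 rose and SETDB2 was not called. These are bulk libraries, in which fewer cells that hold an RNA and less of that RNA per cell cannot be told apart. EHMT2, known as G9a, forms a dimer with EHMT1 and lays down the lower H3K9 methylation states in euchromatin. It stood at 15.1, 14.2, 13.9 and 13.9 CPM in PZH libraries 1 to 4, against 96.7, 103, 95.5 and 97.4 CPM in DMSO libraries 1 to 4. All treated libraries lay below all control libraries, with a fall of 6.87-fold (log2 fold change -2.78 ± 0.0579, adjusted p = 2.75e-21). Its partner EHMT1 fell less, 1.46-fold, with 47.9, 47.3, 43.7 and 45.5 CPM in PZH libraries 1 to 4, against 64.4, 64.7, 69.2 and 70.6 CPM in DMSO libraries 1 to 4 (log2 fold change -0.54 ± 0.0536, adjusted p = 3.39e-09).

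SUV39H1 and SUV39H2 trimethylate H3K9 in the heterochromatin around centromeres. SUV39H1 fell 4.28-fold, with 4.25, 4.49, 4.83 and 3.45 CPM in PZH libraries 1 to 4, against 20.3, 18.6, 15.8 and 18.4 CPM in DMSO libraries 1 to 4 (log2 fold change -2.10 ± 0.119, adjusted p = 1.78e-13). SUV39H2 fell 2.17-fold, with 15.1, 12.6, 14.7 and 14.4 CPM in PZH libraries 1 to 4, against 32.5, 26.4, 31.3 and 33.4 CPM in DMSO libraries 1 to 4 (log2 fold change -1.12 ± 0.0862, adjusted p = 4.52e-11). Neither gene's groups overlapped. SETDB1, which works with TRIM28 to silence retroelements, went the other way, at 56.1, 59.2, 59.9 and 63.3 CPM in PZH libraries 1 to 4, against 37.9, 42.6, 42.5 and 40.1 CPM in DMSO libraries 1 to 4, a rise of 1.46-fold (log2 fold change 0.55 ± 0.0570, adjusted p = 8.73e-09). SETDB2 averaged 8.19 ± 1.39 CPM in PZH and 8.03 ± 0.733 CPM in DMSO and did not pass (adjusted p = 0.830). In GENCODE release 29, exons of genes on the opposite strand cover 21.5% of the exon bases of SUV39H1 and 14.1% of those of EHMT2. These opposite-strand genes, AC231533.1 and EHMT2-AS1, were not among the genes tested. CERS2, at 118 CPM in PZH and 109 CPM in DMSO, covers 8.37% of the exon bases of SETDB1 on the opposite strand. RNF34, at 41.6 CPM in PZH and 46.0 CPM in DMSO, covers 6.01% of the exon bases of KDM2B on the opposite strand. PLEKHJ1, at 17.7 CPM in PZH and 32.2 CPM in DMSO, covers 7.11% of those of DOT1L, also on the opposite strand. Further overlaps under 10% are not given. Whether counting used strand is not stated in those sources, and the part of these transcripts in the values was not tested.

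Per length, the H3K9 writers together came to 33.2 ± 0.466 in PZH and 63.5 ± 0.766 in DMSO, in scaled CPM per kb of transcript (longest protein-coding transcript in GENCODE, mean ± SD, n = 4). Of this sum, EHMT2 made up 10.4 ± 0.393% in PZH and 37.4 ± 1.36% in DMSO. SETDB1 made up 40.4 ± 1.99% in PZH and 14.5 ± 0.852% in DMSO, so that the gene with the highest level per kb in the class was SETDB1 in PZH and EHMT2 in DMSO. Which transcripts the cells used is not known, so levels per kb are approximate.

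**Figure D2:**
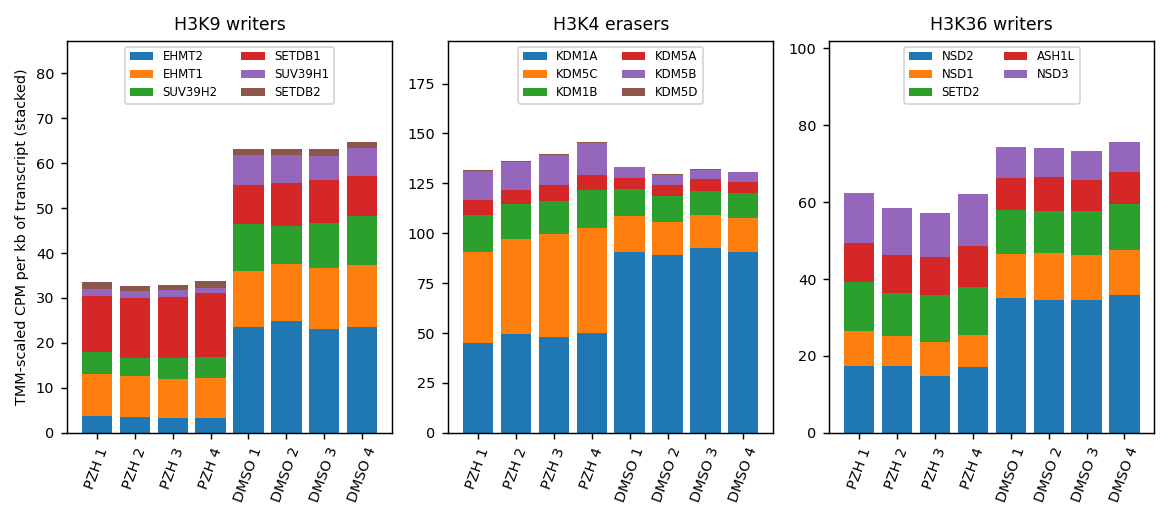
Stacked bars give the level of each gene in scaled CPM per kb of transcript in each of the 4 PZH and 4 DMSO libraries, for the H3K9 writers, H3K4 erasers and H3K36 writers. The H3K9 writers sum to 32.8 to 33.7 in PZH and 63.0 to 64.6 in DMSO, while the H3K4 erasers average 138 in PZH and 131 in DMSO, with KDM1A lower and KDM5C higher in PZH.

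Erasers of H3K9 methylation rose in 5 of 7 cases and fell in 2. KDM7A, which removes dimethyl marks from H3K9 and H3K27, rose 4.13-fold. It stood at 86.8, 94.4, 82.9 and 94.0 CPM in PZH libraries 1 to 4, against 21.5, 23.2, 19.2 and 22.8 CPM in DMSO libraries 1 to 4 (log2 fold change 2.05 ± 0.0646, adjusted p = 3.77e-18), with no overlap. KDM4C and KDM4A, which act on trimethylated H3K9 and H3K36, rose 1.91-fold and 1.60-fold. KDM4C averaged 45.3 ± 2.06 CPM in PZH and 23.8 ± 1.79 CPM in DMSO. KDM4A averaged 54.4 ± 2.05 CPM in PZH and 33.9 ± 1.84 CPM in DMSO. In GENCODE, AL451062.3 on the same strand covers 46.4% of the exon bases of KDM4A, so reads there could be split. The related KDM4B (log2 fold change 0.28 ± 0.0536, adjusted p = 6.95e-05) and the H3K9 demethylase KDM3A (log2 fold change 0.20 ± 0.0493, adjusted p = 6.92e-04) rose by less. Without scaling factors KDM4B lost its call (0.0155, adjusted p = 0.804) and KDM3A changed sign and was not called (-0.0559, adjusted p = 0.302). KDM3B, the paralog of KDM3A, fell 1.200-fold (log2 fold change -0.26 ± 0.0468, adjusted p = 2.34e-05). Its values were 155, 167, 163 and 179 CPM in PZH libraries 1 to 4, against 195, 200.2, 202 and 199 CPM in DMSO libraries 1 to 4. Those of KDM3A were 88.5, 88.4, 94.2 and 95.2 CPM in PZH libraries 1 to 4, against 80.6, 84.3, 75.2 and 77.8 CPM in DMSO libraries 1 to 4. Groups of neither gene overlapped. KDM4D, at 2.81 ± 0.839 CPM in PZH and 4.26 ± 0.641 CPM in DMSO, fell 1.51-fold (adjusted p = 0.00926), with groups that overlapped.

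Both erasers of H3K27 methylation rose, whereas 3 of the 4 core subunits of PRC2, the complex that writes the mark, fell. KDM6B, known as JMJD3 and inducible in inflammation and differentiation, had the steepest rise of the family, 5.85-fold. It stood at 139.8, 128, 154 and 157 CPM in PZH libraries 1 to 4, against 21.5, 25.5, 25.9 and 26.0 CPM in DMSO libraries 1 to 4 (log2 fold change 2.55 ± 0.0694, adjusted p = 2.76e-19). KDM6A, known as UTX and a subunit of the KMT2C and KMT2D complexes, rose 3.17-fold, with 85.1, 79.4, 79.7 and 88.1 CPM in PZH libraries 1 to 4, against 27.1, 24.99, 25.5 and 27.4 CPM in DMSO libraries 1 to 4 (log2 fold change 1.66 ± 0.0567, adjusted p = 1.58e-17). All treated values of both genes lay above all control values. Their summed level per kb was 35.6 ± 2.45 in PZH and 8.11 ± 0.303 in DMSO.

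PRC2 joins a catalytic subunit, EZH2 or EZH1, to the scaffold subunits SUZ12 and EED. EZH2, the form of dividing cells, stood at 72.0, 72.2, 66.6 and 72.0 CPM in PZH libraries 1 to 4, against 86.6, 83.0, 84.8 and 85.6 CPM in DMSO libraries 1 to 4, 1.202-fold lower in PZH (log2 fold change -0.27 ± 0.0468, adjusted p = 2.06e-05). EZH1, the form of resting cells, stood at 42.4, 38.9, 43.2 and 40.5 CPM in PZH libraries 1 to 4, against 21.2, 23.1, 22.3 and 22.5 CPM in DMSO libraries 1 to 4, 1.85-fold higher (log2 fold change 0.89 ± 0.0629, adjusted p = 1.02e-11). Neither gene's groups overlapped. EED, which reads the mark, fell 1.56-fold and SUZ12 fell 1.23-fold. EED averaged 23.3 ± 1.16 CPM in PZH and 36.2 ± 2.61 CPM in DMSO. SUZ12 averaged 96.6 ± 4.33 CPM in PZH and 119 ± 2.28 CPM in DMSO. Per kb, EZH2 stayed above EZH1 in both groups, at 26.8 ± 1.03 and 8.92 ± 0.416 scaled CPM per kb in PZH, and at 32.2 ± 0.581 and 4.82 ± 0.172 in DMSO.

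**Figure D3:**
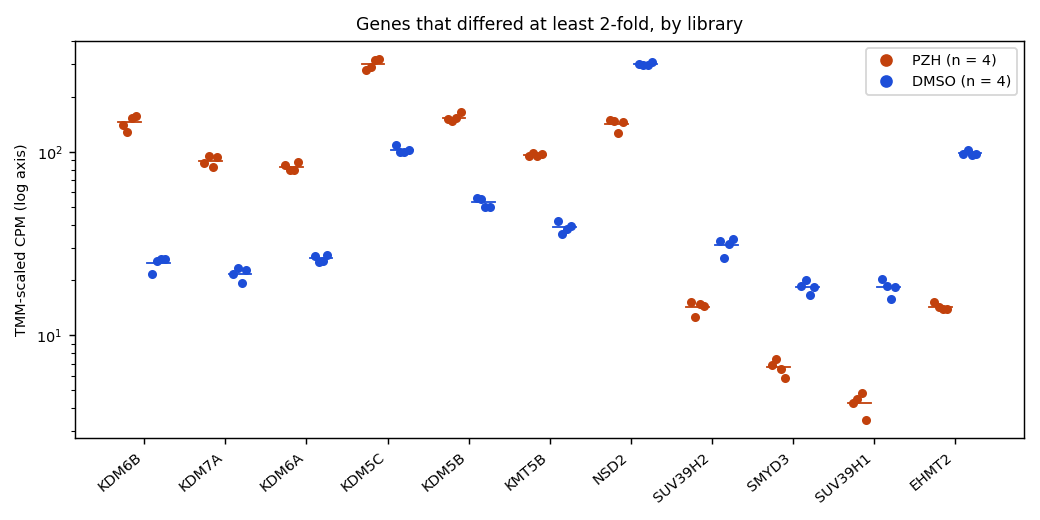
Scaled CPM on a log axis for 11 genes that differed at least 2-fold. KDM5D, a scarce gene that also differed at least 2-fold, is not drawn. PZH libraries are left of DMSO libraries in each pair, with a line at each mean (n = 4 per group). In each of the 11 genes the 4 PZH points lie apart from the 4 DMSO points, above them for KDM6B, KDM7A, KDM6A, KDM5C, KDM5B and KMT5B and below them for the other 5.

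Among H3K4 erasers, KDM1A fell and the other 5 rose. KDM1A, known as LSD1, the flavin-dependent eraser of the CoREST repressor complex, fell 1.89-fold. It stood at 137, 152, 147 and 153 CPM in PZH libraries 1 to 4, against 277, 273, 284 and 278 CPM in DMSO libraries 1 to 4 (log2 fold change -0.92 ± 0.0460, adjusted p = 1.76e-14), and its groups did not overlap. Its paralog KDM1B rose 1.38-fold, with 70.1, 66.3, 61.7 and 71.6 CPM in PZH libraries 1 to 4, against 51.4, 49.5, 46.2 and 47.7 CPM in DMSO libraries 1 to 4 and no overlap. The KDM5 enzymes remove di- and trimethyl marks from H3K4. KDM5C rose 2.94-fold, with 279, 289, 316 and 322 CPM in PZH libraries 1 to 4, against 109, 99.7, 100.1 and 102 CPM in DMSO libraries 1 to 4 (log2 fold change 1.55 ± 0.0524, adjusted p = 1.28e-17). KDM5B, at 151, 146, 153 and 165 CPM in PZH libraries 1 to 4, against 56.1, 55.4, 50.2 and 50.2 CPM in DMSO libraries 1 to 4, rose 2.90-fold (log2 fold change 1.54 ± 0.0529, adjusted p = 1.83e-17). Treated libraries of both genes lay above every control library. KDM5A, known for binding the retinoblastoma protein, rose 1.37-fold, averaging 82.2 ± 4.91 CPM in PZH and 60.1 ± 1.61 CPM in DMSO. KDM5D rose 2.59-fold, with 1.98, 2.48, 3.81 and 2.85 CPM in PZH libraries 1 to 4, against 1.10, 0.899, 1.16 and 1.10 CPM in DMSO libraries 1 to 4 (log2 fold change 1.37 ± 0.249, adjusted p = 2.92e-05). It is a close copy of KDM5C, and at this low level, with 35 to 63 counts per PZH library and 19 to 25 per DMSO library, its value is uncertain.

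The sum of the H3K4 erasers per kb was 138 ± 5.90 in PZH and 131 ± 1.64 in DMSO, but its make-up differed. KDM1A made up 34.8 ± 1.11% in PZH and 69.2 ± 0.917% in DMSO. KDM5C made up 35.8 ± 1.14% in PZH and 12.8 ± 0.418% in DMSO. In rank among the 54 genes by level per kb, KDM1A stood at place 2 in PZH and 1 in DMSO, and KDM5C at place 1 in PZH and 13 in DMSO.

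Of the writers of H3K4 methylation, 3 of 6 were higher, 2 lower and 1 not called, with a median log2 fold change of 0.21, against 0.92 for the H3K4 erasers. These counts were 2 higher and 3 lower without scaling factors, and 4 higher and 0 lower with the GC trend removed. KMT2C, which marks enhancers, rose 1.52-fold and KMT2B rose 1.46-fold. KMT2C averaged 74.7 ± 3.51 CPM in PZH and 49.3 ± 2.75 CPM in DMSO. KMT2B averaged 46.9 ± 0.599 CPM in PZH and 32.0 ± 1.62 CPM in DMSO. KMT2A, the gene rearranged in MLL leukaemia, rose 1.26-fold (log2 fold change 0.33 ± 0.0493, adjusted p = 1.98e-06), a call lost without scaling factors (0.0731, adjusted p = 0.146). AP001267.5, on the same strand, covers 22.0% of the exon bases of KMT2A. KMT2D, the partner of KMT2C at enhancers, stood at 185, 145, 178 and 168 CPM in PZH libraries 1 to 4, against 156, 157, 163 and 162 CPM in DMSO libraries 1 to 4 and was not called (adjusted p = 0.179). PZH replicate 2 lay below all DMSO libraries and the other PZH libraries above them. Left without that library, KMT2D was called higher (log2 fold change 0.16, adjusted p = 0.00247), as it was with each library's GC trend removed (0.30, adjusted p = 8.75e-05), and without scaling factors it was called lower (-0.17, adjusted p = 0.0174). SETD1A and SETD1B, the broad promoter writers, fell 1.22-fold and 1.23-fold (adjusted p = 1.34e-04 and 0.00256). Both calls were lost with the GC trend removed (log2 fold change 0.0103, adjusted p = 0.881 for SETD1A and -0.0231, adjusted p = 0.799 for SETD1B).

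The writers of H3K36 methylation parted within the NSD family. NSD2, which dimethylates H3K36 and is overproduced in some myelomas, fell 2.11-fold, with 149.7, 148, 127 and 146 CPM in PZH libraries 1 to 4, against 301, 296, 297 and 308 CPM in DMSO libraries 1 to 4 (log2 fold change -1.07 ± 0.0507, adjusted p = 5.75e-15). NSD3 rose 1.62-fold, with 141, 132, 125 and 144 CPM in PZH libraries 1 to 4, against 87.8, 81.7, 82.0 and 82.7 CPM in DMSO libraries 1 to 4 (log2 fold change 0.70 ± 0.0504, adjusted p = 1.50e-11). NSD1, mutated in Sotos syndrome, fell 1.37-fold, with 117, 101, 113 and 108 CPM in PZH libraries 1 to 4, against 146, 158, 149 and 149.6 CPM in DMSO libraries 1 to 4. Groups of the 3 NSD genes did not overlap. ASH1L rose 1.23-fold (log2 fold change 0.30 ± 0.0465, adjusted p = 4.20e-06), a call lost without scaling factors (0.0384, adjusted p = 0.458). SETD2, the trimethylase of H3K36, was not called at 99.0 ± 4.57 CPM in PZH and 94.1 ± 3.85 CPM in DMSO (adjusted p = 0.168). Leaving out PZH replicate 2 made it a higher call (log2 fold change 0.11, adjusted p = 0.0362), and leaving out the scaling factors a lower one (-0.19, adjusted p = 0.00227). Per kb, NSD2 made up 27.7 ± 1.44% in PZH and 47.2 ± 0.377% in DMSO of the class, and NSD3 20.9 ± 0.555% in PZH and 10.4 ± 0.359% in DMSO.

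Of the genes grouped here as H3K36 erasers, KDM2A rose and KDM2B and KDM8 fell. KDM2B, which brings a variant polycomb complex to CpG islands, stood at 23.6, 27.8, 24.0 and 27.8 CPM in PZH libraries 1 to 4, against 46.5, 45.8, 47.0 and 46.6 CPM in DMSO libraries 1 to 4, 1.80-fold lower (log2 fold change -0.85 ± 0.0646, adjusted p = 3.63e-11). KDM2A, its paralog with the same CpG-binding finger, stood at 149, 135, 159.9 and 154 CPM in PZH libraries 1 to 4, against 115, 113, 110.1 and 115 CPM in DMSO libraries 1 to 4, 1.32-fold higher (log2 fold change 0.40 ± 0.05002, adjusted p = 1.45e-07). Groups of neither gene overlapped. KDM8 was scarce, with 19 to 23 counts per PZH library and 37 to 48 per DMSO library, or 1.21 ± 0.0877 CPM in PZH and 1.97 ± 0.225 CPM in DMSO, and fell 1.62-fold (adjusted p = 0.0108). On the opposite strand, AC109449.1 covers 10.7% of its exon bases.

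Of the 3 writers of H4K20 methylation, 2 were called higher and 1 was not called. DOT1L, the 1 writer of H3K79 methylation, was called higher. Of all genes tested, 39.3% were called higher. KMT5B, which adds the second and later methyl groups to H4K20, rose 2.49-fold, with 95.1, 98.5, 95.3 and 97.2 CPM in PZH libraries 1 to 4, against 41.9, 35.7, 38.0 and 39.6 CPM in DMSO libraries 1 to 4 (log2 fold change 1.31 ± 0.0529, adjusted p = 3.15e-16). KMT5A, which adds the first and is turned over through the cell cycle, rose 1.54-fold and averaged 89.2 ± 2.46 CPM in PZH and 57.9 ± 1.74 CPM in DMSO. Their groups did not overlap. KMT5C was not called, with 6.62, 10.5, 5.86 and 6.91 CPM in PZH libraries 1 to 4, against 7.94, 9.18, 7.31 and 6.93 CPM in DMSO libraries 1 to 4 (adjusted p = 0.676), and PZH replicate 2 stood above the other PZH libraries. DOT1L, the writer of H3K79, which has no SET domain, rose 1.21-fold (log2 fold change 0.27 ± 0.0551, adjusted p = 9.92e-05), a call lost without scaling factors (0.0143, adjusted p = 0.816).

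The remaining SETD and SMYD proteins with KMT2E, several of which act on proteins other than histones, were 8 lower and 3 higher of 11 tested. SMYD3, a methyltransferase of MAP kinase signalling often high in colorectal tumours, fell 2.75-fold, with 6.85, 7.44, 6.53 and 5.82 CPM in PZH libraries 1 to 4, against 18.4, 20.02, 16.6 and 18.4 CPM in DMSO libraries 1 to 4 (log2 fold change -1.46 ± 0.103, adjusted p = 1.00e-11). SMYD4, SMYD2 and SMYD5 fell 1.89-fold, 1.74-fold and 1.18-fold. SMYD2, which methylates p53, averaged 17.0 ± 0.730 CPM in PZH and 29.6 ± 0.458 CPM in DMSO. SMYD4 averaged 11.6 ± 1.51 CPM in PZH and 22.0 ± 1.23 CPM in DMSO. The call of SMYD5 was lost with the GC trend removed (log2 fold change -0.0810, adjusted p = 0.188). SETD6, which methylates the NF-kB subunit RELA, fell 1.80-fold at 9.59 ± 0.776 CPM in PZH and 17.3 ± 1.18 CPM in DMSO. The gene CNOT1, at 384 ± 10.6 CPM in PZH and 375 ± 6.71 CPM in DMSO, overlaps 29.9% of the exon bases of SETD6 on the opposite strand, so the level of SETD6 is uncertain.

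Smaller falls were those of SETD3, the actin histidine methyltransferase, at 1.17-fold, and of SETD7, at 1.15-fold. SETD7 stood at 186, 156, 156 and 157 CPM in PZH libraries 1 to 4, against 189, 186, 186 and 191 CPM in DMSO libraries 1 to 4, and PZH replicate 1 lay within the DMSO range. SETD9 averaged 5.10 ± 0.725 CPM in PZH and 6.36 ± 0.685 CPM in DMSO with an adjusted p of 0.0442, and its call was lost with RLE factors, without a filter, with DESeq2 and without PZH replicates 1, 2 or 4 or DMSO replicates 1, 3 or 4, where adjusted p ran from 0.0545 to 0.168. SETD5, a SET protein of neurodevelopmental disorders, rose 1.72-fold and averaged 283 ± 11.2 CPM in PZH and 165 ± 1.88 CPM in DMSO. KMT2E, which lacks the activity of its KMT2 relatives, rose 1.58-fold and averaged 100.1 ± 4.56 CPM in PZH and 63.3 ± 2.54 CPM in DMSO. SETD4 averaged 17.7 ± 1.75 CPM in PZH and 14.5 ± 1.87 CPM in DMSO (adjusted p = 0.0108), a call lost without scaling factors (0.0325, adjusted p = 0.778) and without DMSO replicate 4 (0.21, adjusted p = 0.0611).

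Ratios of paralogs that write or erase the same mark often differed between groups. Since a ratio of 2 genes within a library needs no scaling factor, the log2 ratio of counts was compared between groups for 16 pairs. The test was an exact two-sided permutation over 70 assignments of libraries, where the smallest p is 0.0286. Ratios were not recomputed with each library's GC trend removed. Its removal moved the log2 fold change of KMT2B from 0.55 to 0.87 and that of KMT2A from 0.33 to 0.31, so a ratio can still depend on it. The ratio differed in 13 of 16 pairs, each with an exact permutation p of 0.0286 and an adjusted p of 0.0352 over the 16 pairs. These ratios did not overlap between groups. Ratios of other gene pairs were not computed. Of all genes tested, 80.3% were called and 75.0% did not overlap, so this count alone does not set paralogs apart. EHMT2 over EHMT1 had the largest shift among the pairs, with a log2 ratio of -1.69 ± 0.04 in PZH and 0.55 ± 0.10 in DMSO (mean ± SD, n = 4 per group). EHMT2 had more counts than EHMT1 in all DMSO libraries and fewer in all PZH libraries. KMT5B over KMT5C was 3.72 ± 0.34 in PZH and 2.31 ± 0.24 in DMSO, and KDM1A over KDM1B was 1.13 ± 0.12 in PZH and 2.51 ± 0.0823 in DMSO. For KDM2A over KDM2B the ratio was 2.54 ± 0.20 in PZH and 1.283 ± 0.0378 in DMSO.

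The catalytic subunits of PRC2 shifted toward EZH1, with EZH2 over EZH1 at 0.78 ± 0.11 in PZH and 1.93 ± 0.0762 in DMSO. NSD3 over NSD1 was 0.30 ± 0.13 in PZH and -0.85 ± 0.0895 in DMSO, so that NSD3 had more counts than NSD1 in all PZH libraries and fewer in all DMSO libraries. NSD2 over NSD1 was 0.38 ± 0.16 in PZH and 0.99 ± 0.0652 in DMSO. KDM5A over KDM5B was -0.90 ± 0.10 in PZH and 0.18 ± 0.12 in DMSO, with KDM5A ahead in counts in the DMSO libraries and KDM5B in the PZH libraries. SUV39H1 over SUV39H2 was -1.74 ± 0.25 in PZH and -0.76 ± 0.21 in DMSO and KDM6A over KDM6B was -0.79 ± 0.12 in PZH and 0.09 ± 0.17 in DMSO, pairs whose members moved the same way by different amounts.

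Smaller shifts were found for KMT2C over KMT2D, at -1.17 ± 0.09 in PZH and -1.69 ± 0.0823 in DMSO, and for KDM3A over KDM3B, at -0.86 ± 0.07 in PZH and -1.33 ± 0.0803 in DMSO. KDM4A over KDM4C was 0.26 ± 0.04 in PZH and 0.52 ± 0.18 in DMSO, a difference that missed the adjusted threshold without any 1 of the PZH libraries (adjusted p = 0.0610 to 0.0653). Pairs that did not pass were SETDB1 over SETDB2 (difference 0.53, exact permutation p = 0.0571, adjusted p = 0.0610), KMT2A over KMT2B (-0.22, with the same p and adjusted p) and SETD1A over SETD1B (0.0152, exact permutation p = 0.943). SETDB1 over SETDB2 passed without PZH replicate 1 (difference 0.66, adjusted p = 0.0352).

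**Figure D4:**
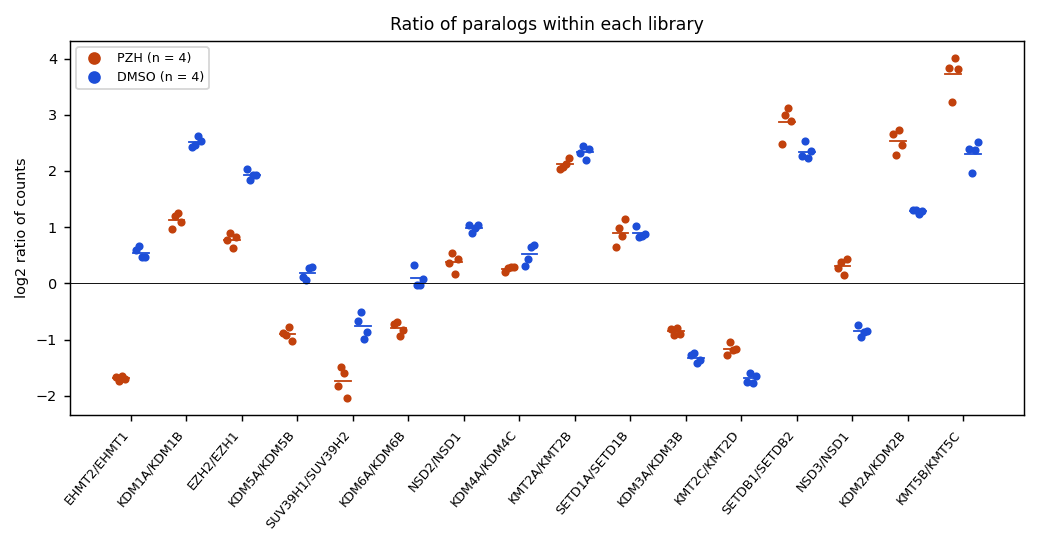
Log2 ratio of the counts of 2 paralogs in each library, for 16 pairs in order of the PZH minus DMSO difference, with a line at each group's mean (n = 4 per group). Differences between the group means run from -2.24 for EHMT2 over EHMT1 to 1.41 for KMT5B over KMT5C.

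Proteins that work with these enzymes were counted from lists chosen with earlier results of these data known, and each partner named here as higher or lower passed the test. Of all genes tested, 39.3% were called higher and 40.9% lower, and none of the lists below was tested against these shares. Among 9 partners and readers of H3K9 methylation, 6 fell, 1 rose and 2 were not called, with a median log2 fold change of -0.63. The HP1 proteins bind methylated H3K9. Of these, CBX5 was 3.33-fold and CBX1 2.38-fold lower, and TRIM28, the corepressor that recruits SETDB1, was 2.63-fold lower. CBX5 averaged 100.4 ± 8.25 CPM in PZH and 335 ± 7.39 CPM in DMSO. TRIM28 averaged 279 ± 16.4 CPM in PZH and 733 ± 11.7 CPM in DMSO. PHF1, RBBP7 and EPOP belong to the 8 accessory subunits of PRC2, which were 2 higher, 4 lower and 2 not called, with a median of -0.38. JARID2, on this list, is also on that of JmjC proteins. The histone chaperone RBBP7 fell 2.82-fold, the elongin-binding subunit EPOP fell 3.14-fold, and PHF1, which reads H3K36 methylation, rose 3.07-fold. PHF1 averaged 75.9 ± 5.51 CPM in PZH and 24.7 ± 1.09 CPM in DMSO. Without scaling factors the counts were 1 higher and 8 lower of the 9 H3K9 partners, and 2 higher and 6 lower of the 8 PRC2 subunits.

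CoREST partners of KDM1A were 3 higher, 5 lower and 1 not called of 9, with a median of -0.29. The deacetylase HDAC1 and the HMG protein HMG20B fell 2.82-fold and 2.49-fold, and the zinc finger protein ZMYM2 rose 2.26-fold. Subunits of the KMT2 and SETD1 complexes were 3 higher, 10 lower and 1 not called of 14, with a median of -0.35. The chromatin reader PSIP1, the core subunit WDR5 and menin, the product of MEN1, were lower by 2.12-fold, 1.68-fold and 1.69-fold. WDR5 averaged 65.4 ± 4.36 CPM in PZH and 110.2 ± 2.58 CPM in DMSO. DOT1L partners were 3 lower and 1 not called of 4, with a median of -0.59, and fell for MLLT3 by 7.21-fold, for MLLT6 by 1.83-fold and for MLLT1 by 1.24-fold. MLLT3, a reader of acylated histones, averaged 1.63 ± 0.315 CPM in PZH and 11.9 ± 1.64 CPM in DMSO.

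Related proteins, not all of them enzymes of histone methylation, also went both ways. JmjC proteins outside the family names were 6 higher, 4 lower and 2 not called of 12, with a median of 0.06, and with library totals alone 4 higher and 5 lower. Among them JMJD6 and JMJD1C rose 2.82-fold and 2.59-fold, and HR, the hairless corepressor, fell 4.92-fold. PRDM proteins with SETMAR were 5 higher, 3 lower and 5 not called of 13, with a median of 0.23, and with library totals alone 4 higher and 5 lower. PRDM1, known as Blimp-1, and PRDM4 rose 7.02-fold and 2.03-fold, and SETMAR fell 3.99-fold. Arginine methyltransferases were 2 higher and 6 lower of 8, with a median of -0.55. PRMT7 and PRMT1, the main producer of asymmetric dimethylarginine, fell 4.28-fold and 1.51-fold, while PRMT9 rose 2.33-fold.

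Genes of the methyl donor were 4 lower and 2 higher of 6, with a median of -0.78. Without scaling factors 1 was higher and 4 lower. MAT2A, the synthase of S-adenosylmethionine outside the liver, fell 5.24-fold, with 58.4, 56.0, 62.4 and 67.4 CPM in PZH libraries 1 to 4, against 305, 329, 309.7 and 337 CPM in DMSO libraries 1 to 4. AHCY, which clears the product S-adenosylhomocysteine, fell 2.46-fold, averaging 143 ± 12.8 CPM in PZH and 352 ± 13.99 CPM in DMSO, and its relative AHCYL1 rose 1.36-fold. Groups of MAT2A did not overlap. Protein levels, enzyme activity and the marks themselves were not measured in these files.

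**Figure D5:**
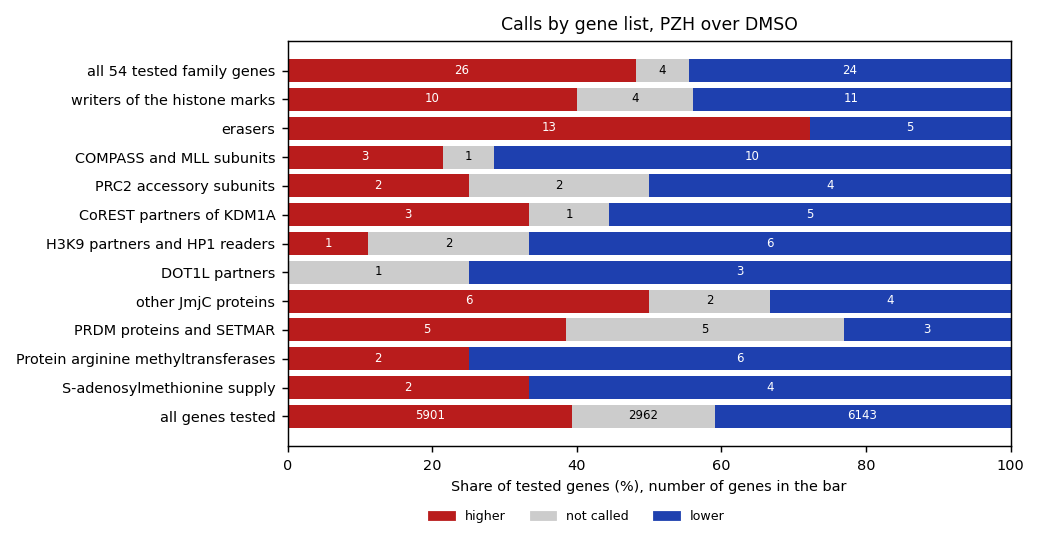
Share of tested genes called higher, not called or called lower in PZH, with numbers of genes in the bars. Rows are the family, its writers and erasers, 9 lists of partners and related proteins, and all genes tested. The erasers show 13 of 18 higher, while among all genes 5901 were higher and 6143 lower of 15006.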

How the data were processed

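Poly(A) RNA of 8 HCT116 libraries was sequenced, 4 of PZH and 4 of DMSO. The authors deposited whole-number counts per gene symbol, not normalized, with 1 column per library and 0 columns of no sample. Tools named without a role, per the submitters' processing notes, are DESeq 1.28.0, StringTie 1.3.3b, HISAT2 2.1.0 and FastQC 0.11.5. Genome build, annotation and strand setting: not given in the sources used here. Of the rows, 25 carry a date in place of a symbol. They stayed in library sizes and tests, and none can be assigned to the family.

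Replicates differed by more than counting noise in every pair (chi-square over its degrees of freedom, 4.03 to 12.3 for PZH pairs and 2.39 to 2.81 for DMSO pairs, on genes summing to 20 counts or more), and all 8 were kept as separate samples. A floor of 3 counts is 0.159 to 0.165 CPM in PZH and 0.151 to 0.156 CPM in DMSO and covers counting error only. Genes were kept by filterByExpr (minimum count 10, minimum total 15), scaled with TMM and tested in edgeR 4.0.16 (R 4.3.3, limma 3.58.1) with glmQLFit and glmQLFTest, group as the only term, adjusted over all 15006 genes at 0.05. Standard errors are the size of a log2 fold change over the root of its F value. Paralog ratios used a pseudocount of 0.5 counts in Python 3.11.15. The fit was checked on simulated counts in which few genes differed, as many up as down. That check does not cover data in which most genes are called, nor the choice of scaling.

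Values in every library are given for members that differed at least 2-fold and for paralogs called in opposite directions, with a few others that the text singles out after their values were seen. Of each partner list, up to 3 called genes with the smallest p are named. Members and lists were chosen with earlier results of these data known. Alternatives were RLE factors, no scaling factors, no filter, DESeq2 1.42.0, the replicate number as a block, a ratio pseudocount of 1 and leaving out each library. Removing each library's GC trend (loess, span 0.5, on GENCODE release 29 transcripts) and leaving out the 10 most abundant genes were added after seeing the data.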

Additional observations from a re-analysis of the deposited data

Results flagged for a closer look

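Among 108 groups of 4 libraries (54 genes in PZH and in DMSO), 5 held a library far from the other 3, by Dixon's test of the gap to the nearest library against the group's range, and of 32 groups of paralog ratios 2 did. Chance flags about 1 in 20 groups. In PZH, EZH2 stood at 66.6 CPM in replicate 3, against 72.0 to 72.2 CPM in the other PZH libraries. SETD7 stood at 186 CPM in PZH replicate 1, against 156 to 157 CPM in the others. In DMSO, KDM6B stood at 21.5 CPM in replicate 1 (25.5 to 26.0 CPM in the other DMSO libraries), NSD3 at 87.8 CPM in replicate 1 (81.7 to 82.7 CPM) and SETD1A at 50.6 CPM in replicate 2 (55.3 to 56.1 CPM). The log2 ratio of KDM4A over KDM4C was 0.21 in PZH replicate 1 and 0.28 to 0.29 in the other PZH libraries. The log2 ratio of KDM2A over KDM2B was 1.23 in DMSO replicate 3 and 1.296 to 1.308 in the other DMSO libraries.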

How the results depend on the processing

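Of the 54 tested genes, 40 kept their direction and their side of the threshold under all 15 alternatives. The other 14 were ASH1L, DOT1L, KDM3A, KDM4B, KMT2A, KMT2D, KMT5C, SETD1A, SETD1B, SETD2, SETD4, SETD9, SETDB2 and SMYD5. The sign changed without scaling factors for KDM3A (log2 fold change -0.0559), KMT2D (-0.17), SETD2 (-0.19) and SETDB2 (-0.23), and with the GC trend removed for SETD1A (0.0103), KMT5C (0.32) and SETDB2 (-0.0549). KMT5C and SETDB2 were not called under any alternative. On leaving out each library, their log2 fold changes ran from -0.27 to 0.0356 for KMT5C and from -0.0610 to 0.11 for SETDB2. Scaling moves all genes at once by construction, and the cause of the GC changes was not tested. On leaving out each library, 25 to 28 family members were called higher and 23 to 24 lower, and 5835 to 5991 genes higher and 6026 to 6217 lower over all genes tested. The other alternatives kept these counts within 1.5 times, with 20 to 27 members higher and 21 to 26 lower. On leaving out each library, the PZH minus DMSO difference of KDM4A over KDM4C ran from -0.32 to -0.20 and that of SETDB1 over SETDB2 from 0.45 to 0.66. That of SETD1A over SETD1B, which did not pass, ran from -0.0666 to 0.101. Depth limits the scarcest genes: KDM8 had 19 to 48 counts per library. With a ratio pseudocount of 1, each of the 16 pairs kept its direction and its call.

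The replicate number as a block gave 26 members higher and 23 lower, and 5889 and 6125 over all genes, and the call it lost in the family was that of SETD9 (log2 fold change -0.32, adjusted p = 0.0577). Same-numbered PZH and DMSO libraries were correlated at 0.00074 to 0.0113 in their deviations from group means, and not every library correlated best with its own number, so the numbers are not treated as pairs.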
